A study of Mus musculus with 12 samples.

Results

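Cluster 4 of the 28W kidney library comprised the 786 cells that the deposited clustering assigned to number 4, of 7135 cells in that library (11.02%, exact binomial 95% interval 10.3 to 11.8) and 20510 cells in the series. The series profiled PD-1+CD44+CD8+ T cells of female NZB/W F1 mice, hybrids of the NZB and NZW strains in which lupus nephritis arises spontaneously, by 10x Genomics 5′ v2 single-cell RNA sequencing. The 28W kidney group was sorted from kidneys at 28 weeks after collagenase digestion and Percoll separation, and the spleen groups from spleens at 12 weeks (12W spleen) and 28 weeks (28W spleen). Groups follow the sample titles, although the age entry for 28W spleen gives 12 weeks. No treatment or transgene was labelled in any group. The 4 samples of a group were pooled in its tables, the number of mice behind them was not stated, and each group was therefore 1 library. Intervals below are 95% intervals of counting error only. The clusters were built from the same genes that are compared here, so each difference between clusters is a description and carries no test.

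T cells of the type 17 program make interleukin 17A and respond to interleukin 23 and interleukin 1. Many of them are γδ T cells that leave the thymus already committed to this program and settle in barrier tissues, where a canonical set uses a receptor of the Vγ6 chain paired with the δ chain encoded by *Trdv4*. CD8+ T cells that make interleukin 17A, termed Tc17 cells, and innate-like αβ T cells share parts of the program.

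The kidney library held 29937384 unique molecular identifiers (UMIs) in 12 clusters, and cluster 4 held 3455294 of them, a mean of 4396 UMIs per cell. Levels are given as UMIs per 1000000 UMIs of a cluster (CPM), and 3 counts, the limit for a gene with 0 UMIs, correspond to 0.868 CPM in cluster 4. Mitochondrial transcripts made up 0.558% of its UMIs, the second lowest share of the 12 clusters. The other 11 clusters, pooled, were the first reference. They include cluster 2, with 10.8% mitochondrial UMIs, cluster 7, with the tubule enzyme gene *Miox* at 1611 CPM, cluster 8, with the B cell receptor gene *Cd79a* at 1074 CPM, cluster 11, with the cell cycle gene *Mki67* at 484 CPM, and cluster 12, with the myeloid lysozyme gene *Lyz2* at 3170 CPM. Clusters 1, 3, 5, 6, 9 and 10, with 3879 cells, remained as a second reference and are called the CD8 reference clusters. Barcodes shared with the spleen libraries numbered 11 of the 786.

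The germline V segments with the most UMIs among the γδ receptor genes past 2-fold in cluster 4 are shown first, because their reads mark the Vγ6 and *Trdv4* chains. Each line holds the V exon of the named gene in GRCm38 (GENCODE M21), 5′ to 3′ on the plus strand, and capitals mark the germline start of CDR3, the stretch that contacts antigen. *Tcrg-V6* lies at chr13:19190630-19190929 and *Trdv4* at chr14:54075217-54075515.
Tcrg-V6: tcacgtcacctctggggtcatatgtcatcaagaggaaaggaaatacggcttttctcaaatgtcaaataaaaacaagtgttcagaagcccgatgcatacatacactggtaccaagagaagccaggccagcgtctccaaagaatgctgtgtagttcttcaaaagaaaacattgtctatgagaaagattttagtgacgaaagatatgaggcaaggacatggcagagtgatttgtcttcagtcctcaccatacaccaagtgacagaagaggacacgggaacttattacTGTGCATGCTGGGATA
Trdv4: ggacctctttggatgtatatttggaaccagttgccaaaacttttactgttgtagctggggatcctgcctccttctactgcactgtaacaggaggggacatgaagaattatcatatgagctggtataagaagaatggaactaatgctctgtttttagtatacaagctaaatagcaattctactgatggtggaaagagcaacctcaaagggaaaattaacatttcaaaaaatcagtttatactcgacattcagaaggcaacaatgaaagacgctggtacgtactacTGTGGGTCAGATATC
Over their aligned coding bases, *Tcrg-V6* was 51.6% identical to *Tcrg-V4*, 50.9% to *Tcrg-V5* and 50.3% to *Tcrg-V7*, the neighbouring segments of the same locus.

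The letters AGGTCA are the core of sites that many nuclear receptors bind. The 250 bases before the start of 2 genes of the type 17 program are shown because they are core genes of it, with that motif on either strand (AGGTCA or TGACCT) in capitals. *Il17a* encodes the cytokine and *Il23r* a receptor chain for interleukin 23. The windows are from RefSeq on GRCm38.p6, at chr1:20730655-20730904 on the plus strand for *Il17a* and chr6:67491856-67492105 on the minus strand for *Il23r*.
Il17a: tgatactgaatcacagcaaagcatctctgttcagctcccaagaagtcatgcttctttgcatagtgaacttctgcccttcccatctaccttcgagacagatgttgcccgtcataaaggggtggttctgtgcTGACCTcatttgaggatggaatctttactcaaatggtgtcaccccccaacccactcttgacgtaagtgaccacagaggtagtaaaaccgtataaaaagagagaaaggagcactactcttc
Il23r: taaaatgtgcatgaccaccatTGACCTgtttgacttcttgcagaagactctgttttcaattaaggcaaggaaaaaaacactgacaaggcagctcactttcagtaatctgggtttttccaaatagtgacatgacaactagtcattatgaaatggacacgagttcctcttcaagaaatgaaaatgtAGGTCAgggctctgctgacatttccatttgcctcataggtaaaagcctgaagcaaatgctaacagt
The match in *Il17a* spans 120 to 115 bases before the start, and those in *Il23r* lie 66 to 61 and 229 to 224 bases before it. Of the 32 genes in the type 17 and γδ17 lineage lists, 26 had a window in the table and 7 of these held the motif: *Il17a*, *Il17f*, *Il23r*, *Ccr6*, *5830411N06Rik*, *Actn2* and *Sox4*. Counted by window, 7 of 36 held it (19.4%), against 14.0% of all 32851 windows of the table. A match describes the letters only.

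Cluster 4 held most of the *Il17a* transcripts of the kidney library. Of 58 *Il17a* UMIs (chromosome 1, 20730905 to 20734496), 39 were in cluster 4 (67.2%), at 11.3 CPM (8.0 to 15.4). Cluster 12 had 6.74 CPM, cluster 8 3.57, cluster 2 1.03 and cluster 7 0.67, and clusters 1, 3, 5, 6, 9, 10 and 11 had 0 UMIs. The level was 15.7-fold (8.87 to 28.8) that of the other 11 clusters pooled. In the CD8 reference clusters, with 0 UMIs, 3 counts correspond to 0.186 CPM. The 11.3 CPM of cluster 4 was 60.6-fold that limit, a ratio that leaves out the counting error of its 39 UMIs. At most 39 of the 786 cells (4.96%) could hold an *Il17a* UMI, so the transcript itself was seen in few cells of the cluster. The related cytokine gene *Il17f* had 2 UMIs, *Csf2* (GM-CSF) had 2, and *Il22* and *Il21* had 0.

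**Figure D1:**
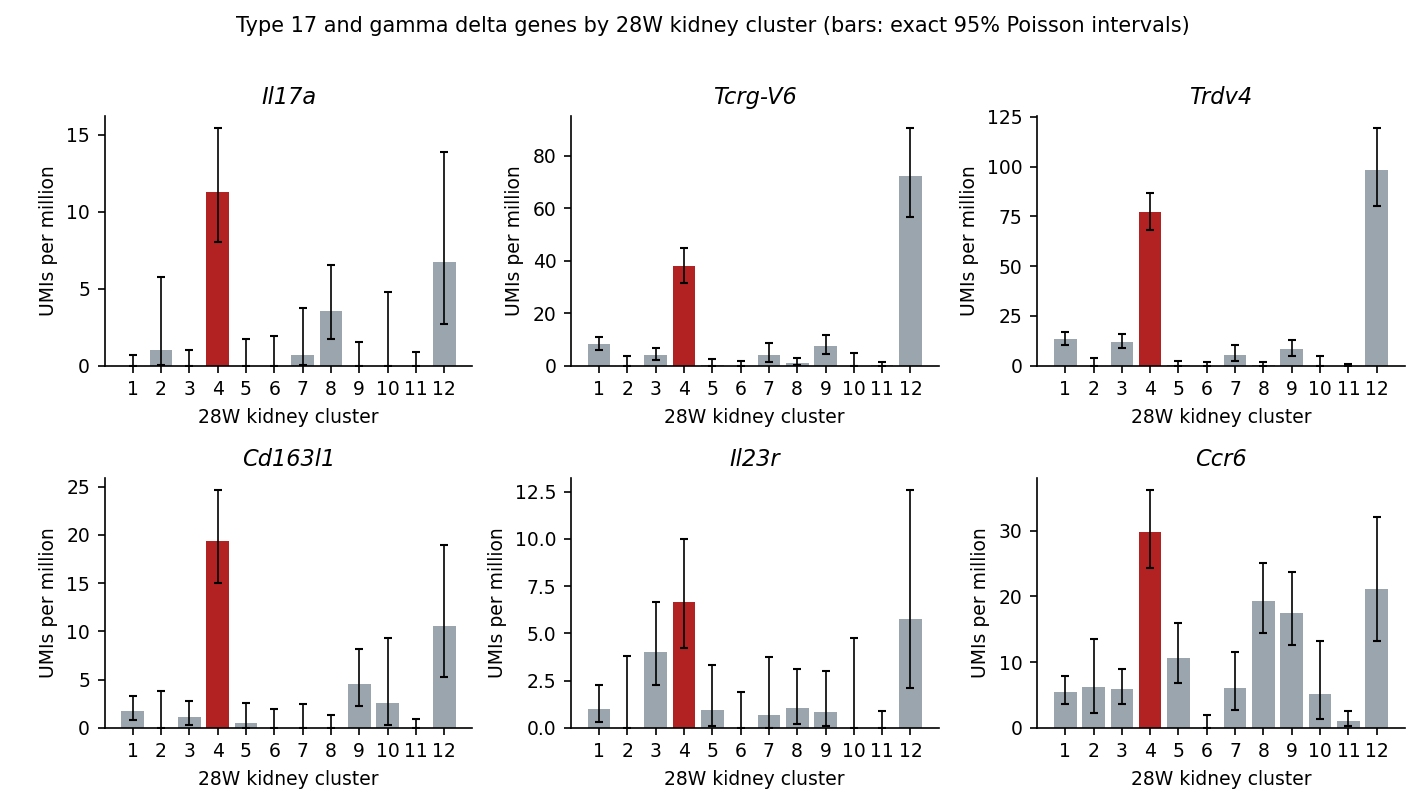
CPM of 6 genes (vertical axes, UMIs per 1000000 UMIs) in each of the 12 kidney clusters (horizontal axes), with exact Poisson 95% limits as error bars. Cluster 4 was highest for *Il17a*, *Cd163l1*, *Il23r* and *Ccr6*, and cluster 12 was higher for *Tcrg-V6* (72.2 against 37.9 CPM) and *Trdv4* (98.2 against 77.0).

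Other genes of the type 17 program were also higher in cluster 4. Of the 22 listed genes, 10 were at least 2-fold higher than in the other 11 clusters and 0 were at least 2-fold lower, where 0.388% of all 17790 genes were that much higher and 8.73% lower. The median log2 ratio was 0.87 (0.54 to 1.52), against -0.15 over all genes. Over the CD8 reference clusters 12 genes were at least 2-fold higher, and 0 lower, against 0.618% and 1.08% of all genes, with a median of 1.36 against -0.09. The summed level of the list was 888 CPM in cluster 4, below cluster 12 at 1925 CPM and cluster 7 at 1437 CPM. All log2 ratios and 2-fold counts here use CPM + 1, which understates the ratio of low genes.

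Receptors of the cytokines that sustain the program were among the higher genes. *Il23r* was at 6.66 CPM against 1.28 (5.18-fold, 2.92 to 9.06), with cluster 12 at 5.78 and cluster 3 at 4.03. *Il1r1*, the signalling receptor of interleukin 1, was at 3.76 CPM against 0.64 in the rest (5.86-fold), with cluster 12 above it at 7.70. *Il17re*, a chain of the interleukin 17C receptor, was at 7.81 CPM against 1.32 (5.91-fold).

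Migration and surface genes of the program had more UMIs behind them. *Ccr6*, the receptor for the chemokine CCL20, was at 29.8 CPM against 8.08 (3.69-fold, 2.89 to 4.69). Its next highest levels were 21.2 in cluster 12, 19.3 in cluster 8 and 17.5 in cluster 9. *Ltb4r1*, the leukotriene B4 receptor, was at 25.2 CPM, against 39.5 in cluster 12, 7.24 in cluster 1 and at most 2.68 elsewhere (6.87-fold over the rest). *Aqp3*, a water and glycerol channel, was at 25.2 CPM against 8.27 (3.04-fold), and *Serpinb1a*, a protease inhibitor, at 29.8 against 13.4 (2.22-fold). *Ramp1*, the partner of the receptor for the neuropeptide CGRP, was at 125 CPM against 43.5 (2.88-fold, 2.57 to 3.22). For *Ramp1* cluster 12 was at 143 CPM and the other clusters at 13.4 to 77.2, so clusters 4 and 12 stood clear of the rest.

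*Tmem176a* and *Tmem176b*, neighbouring genes for ion channels of intracellular membranes, depended on the reference. *Tmem176a* was at 114 CPM in cluster 4, 490 in cluster 12, 379 in cluster 7 and 116 in cluster 2, and at 3.87 to 35.9 in the other clusters. Over all other clusters its ratio was 1.94-fold, and over the CD8 reference clusters it was 5.60-fold (4.82 to 6.50). *Tmem176b* was 1.55-fold and 5.24-fold over the same references. Their annotated spans on chromosome 6 overlap on opposite strands (48840919 to 48847071 and 48833818 to 48841496), and how strand was used in counting was not stated, so the split of UMIs between them is uncertain. Several regulators of the program did not stand out. *Rora* was at 64.0 CPM against 73.4, *Maf* at 35.0 against 37.4, *Ahr* at 10.1 against 10.5 and *Batf* at 85.1 against 88.1, and *Stat3* was slightly lower (98.7 against 117, 0.84-fold, 0.75 to 0.94).

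Cluster 4 and cluster 12 carried the most γδ receptor transcripts of the kidney clusters, with summed levels of the 14 listed genes of 255 and 268 CPM and at most 147 CPM in any other cluster. Of the 14 listed genes, 7 were at least 2-fold higher over the rest, against 0.388% of all genes. At least 2-fold lower on the CPM + 1 scale was 1 gene, against 8.73% of all genes. It was *Tcrg-V7*, with 0 UMIs in cluster 4 and 1.21 CPM in the rest. The median log2 ratio of the list was 1.23, against -0.15 over all genes. *Trdv4* had 266 of its 512 kidney UMIs in cluster 4 (52.0%). Its level was 77.0 CPM there, 98.2 in cluster 12, 13.5 in cluster 1, 12.1 in cluster 3, 8.35 in cluster 9 and at most 5.39 elsewhere, 8.29-fold (6.94 to 9.90) over the rest. *Tcrg-V6* had 131 of 292 UMIs (44.9%), with 37.9 CPM in cluster 4, 72.2 in cluster 12, 8.22 in cluster 1, 7.51 in cluster 9 and at most 4.05 elsewhere (6.24-fold, 4.91 to 7.90). The chains shown above were thus both concentrated in clusters 4 and 12, whose ranges lay apart from the other clusters.

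The nearest γ genes lie beside *Tcrg-V6* on chromosome 13, in the order *Tcrg-V7*, *Tcrg-V4*, *Tcrg-V6*, *Tcrg-V5* and the constant gene *Tcrg-C1* (19214103 to 19217024). Farther along the locus are *Tcrg-V3*, *Trgv2* and *Tcrg-V1*, whose levels are not described here. Cluster 4 had 358 γ V UMIs, and *Tcrg-V6* made up 36.6% of them, so most were in other γ segments. *Tcrg-V4*, the V segment of another γδ T cell set that makes interleukin 17A, had 25 of 46 UMIs in cluster 4 (7.24 CPM, 9.12-fold, 4.90 to 17.1). *Tcrg-V5*, the segment of skin dendritic epidermal T cells, had 8 of 11 UMIs (2.32 CPM, 20.4-fold, 4.91 to 120). The segment of gut epithelial γδ T cells, *Tcrg-V7*, was the one without a UMI in cluster 4. *Tcrg-C1* was at 17.1 CPM against 2.61 (6.55-fold), while *Tcrg-C4* was at 13.3 against 6.80 (1.96-fold) and *Tcrg-C2* at 5.50 against 9.25 (0.59-fold). The constant genes of this locus therefore differed in direction. *Trdc*, the δ constant gene, was at 16.2 CPM against 3.36 (4.82-fold), and *Trdv5* at 10.4 against 1.93 (5.41-fold). These 2 genes overlap on opposite strands on chromosome 14 (54142851 to 54148868 and 54148662 to 54149294), so their split is uncertain as well.

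Genes that mark the γδ17 lineage were also higher in cluster 4. Of 10 listed genes, 5 were at least 2-fold higher over the other 11 clusters and 0 lower, against 0.388% and 8.73% of all genes. Their median log2 ratio was 1.03, against -0.15 over all genes. The summed level of the list was higher in cluster 5 (642 CPM) and cluster 9 (438) than in cluster 4 (371), and *Il7r*, described with the memory genes, made up most of it there. *Cd163l1*, which encodes the scavenger receptor SCART1, had 67 of its 105 kidney UMIs in cluster 4 (63.8%), at 19.4 CPM against 1.43 (13.5-fold, 8.94 to 20.7). Its next levels were 10.6 CPM in cluster 12 and 4.59 in cluster 9. *5830411N06Rik*, the neighbouring gene that encodes SCART2, had 30 of 43 UMIs (69.8%), at 8.68 CPM against 0.49 (17.7-fold). *Kcnk1*, a potassium channel gene, was at 8.39 CPM against 1.10 (7.66-fold). *Blk*, a Src family kinase shared by B cells and γδ17 cells, was at 27.5 CPM, second to the B cell-marked cluster 8 at 84.6, and was 11.6-fold (7.92 to 17.4) over the CD8 reference clusters. *Sox13*, a transcription factor of the lineage, had 13 UMIs (3.76 CPM against 0.76), with cluster 12 at 8.67. *Zbtb16* (PLZF) was at 2.32 CPM and *Etv5* at 0.58, and *Sox4* was at 3.47 against 6.57.

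**Figure D2:**
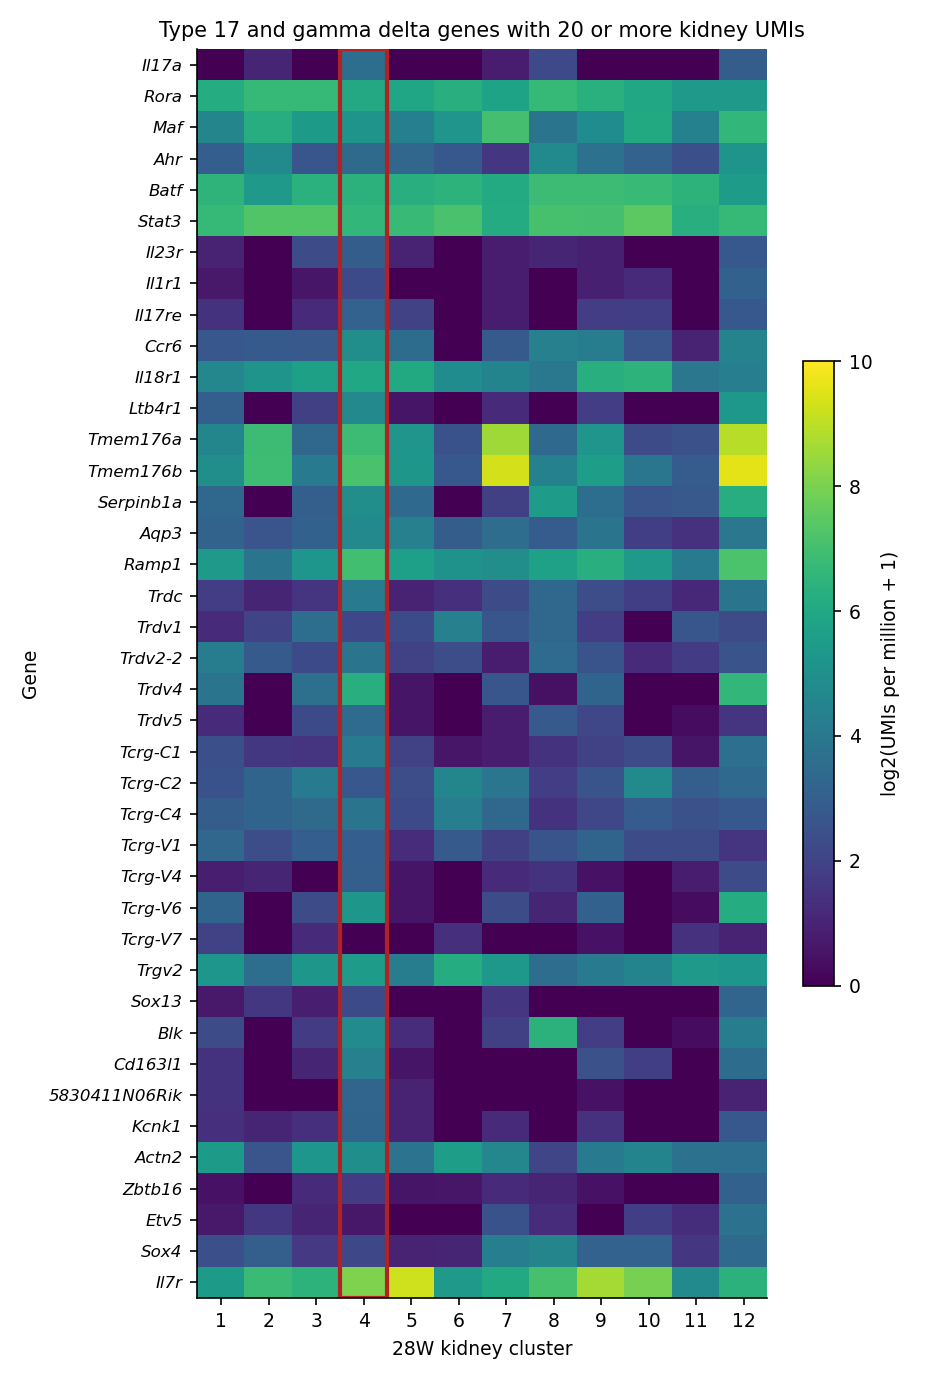
Levels of 40 genes of the type 17, γδ receptor and γδ17 lineage lists (rows) in the 12 kidney clusters (columns), as log2(CPM + 1) on the colour scale. Of these genes, 12 were highest in cluster 4, 12 in cluster 12 and 16 elsewhere.

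Among the 46 genes of these 3 lists, 41 had at least 20 kidney UMIs. Of those, 22 (53.7%) had more UMIs in cluster 4 than in any other cluster, against 2.31% of all 12444 genes with as many UMIs. By CPM, 13 (31.7%) were highest in cluster 4, against 1.70% of all genes, and 12 (29.3%) in cluster 12, a cluster of 184 cells, against 15.5%. With cluster 12 left out 20 (48.8%) were highest in cluster 4, against 2.22% of all genes. Cluster 12 over cluster 4 was 1.28-fold (1.01 to 1.61) for *Trdv4*, 1.91-fold (1.41 to 2.55) for *Tcrg-V6* and 1.57-fold (1.05 to 2.30) for *Ltb4r1*. For *Il17a* the ratio was 0.60 (0.23 to 1.35), which spans 1. *5830411N06Rik* had 1 UMI in cluster 12 (0.11-fold, 0.00 to 0.67). Cluster 12 differed in its other transcripts, with *Cd8a* at 0.19-fold, *Cd3e* at 0.24-fold and *Trac* at 0.20-fold of cluster 4 and with *Lyz2* at 3170 CPM, where cluster 4 had 5 *Lyz2* UMIs.

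The label of cluster 4 was next set against its αβ and CD8 transcripts, since sorting was on CD8. *Cd8a* was at 843 CPM and *Cd8b1* at 1304, with 724 and 1094 in the other clusters pooled. *Cd3e* was at 1506 CPM, the α chain constant gene *Trac* at 260 and the β chain constant gene *Trbc2* at 392. Over the CD8 reference clusters *Trac* was 0.78-fold (0.72 to 0.83) and *Trbc2* 0.86-fold (0.81 to 0.92). Of the 10 αβ receptor and CD8 genes, 0 were past 2-fold in either direction. Over the rest, 0.388% of all genes were that much higher and 8.73% lower. The median log2 ratio of the 10 genes was 0.22 over the rest and -0.10 over the CD8 reference clusters. Over all genes it was -0.15 and -0.09. *Pdcd1*, which encodes PD-1, was at 116 CPM (400 UMIs), against 115 in the rest and 142 in the CD8 reference clusters. Cluster 4 thus held αβ and CD8 transcripts at levels near those of the other T cell clusters, and type 17 and γδ17 genes beside them. Whether single cells carried both could not be read from cluster sums.

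Receptor V segment use gave the same mixed picture. Cluster 4 had 8.89 β chain V (Trbv) UMIs per cell and 0.913 γ and δ V UMIs per cell. Per 100 Trbv UMIs it had 5.15 δ V UMIs, behind cluster 12 with 31.7 and ahead of cluster 2 with 3.36, and 5.12 γ V UMIs, the third highest. *Trdv4* made up 73.9% of its δ V UMIs and *Tcrg-V6* 36.6% of its γ V UMIs, both second to cluster 12 (90.3% and 58.6%). In the CD8 reference clusters *Trdv4* made up 0 to 42.6% of δ V UMIs. Among Trbv segments, *Trbv13-2* took 26.3% (25.3 to 27.3) against 22.6% in the rest, the highest share of the 12 clusters, *Trbv13-1* 20.5% against 26.0% and *Trbv4* 9.10% against 8.93%. The effective number of Trav segments was 45.5, the highest of the 12 clusters, and that of Trbv segments was 9.77, the fifth. The leading Trav segments were *Trav3-3* (7.33%), *Trav5-4* (4.97%) and *Trav10d* (4.56%).

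Across all genes few differences were large. Among 2813 genes with at least 50 CPM in cluster 4 or in the other 11 clusters, 2 (0.0711%) were at least 2-fold higher in cluster 4, *Trdv4* and *Ramp1*, and 162 (5.76%) were at least 2-fold lower. Of the 162, 44 were immunoglobulin genes and 160 had most of their UMIs in clusters 2, 7, 8, 11 or 12. Over the CD8 reference clusters, 5 of 2707 genes were at least 2-fold higher (0.185%) and 7 lower (0.259%). The higher genes were *Trdv4*, *Tmem176a*, *Tmem176b*, *Ramp1* and *Capg*, which encodes an actin-capping protein (147 CPM against 69.6). The lower genes included *Gzmb*, *Gzma*, *Stmn1*, *Ifit3*, *Ccr2* and *Arsb*. Below the minimum of 50 CPM lay most of the type 17 and lineage genes described above.

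**Figure D3:**
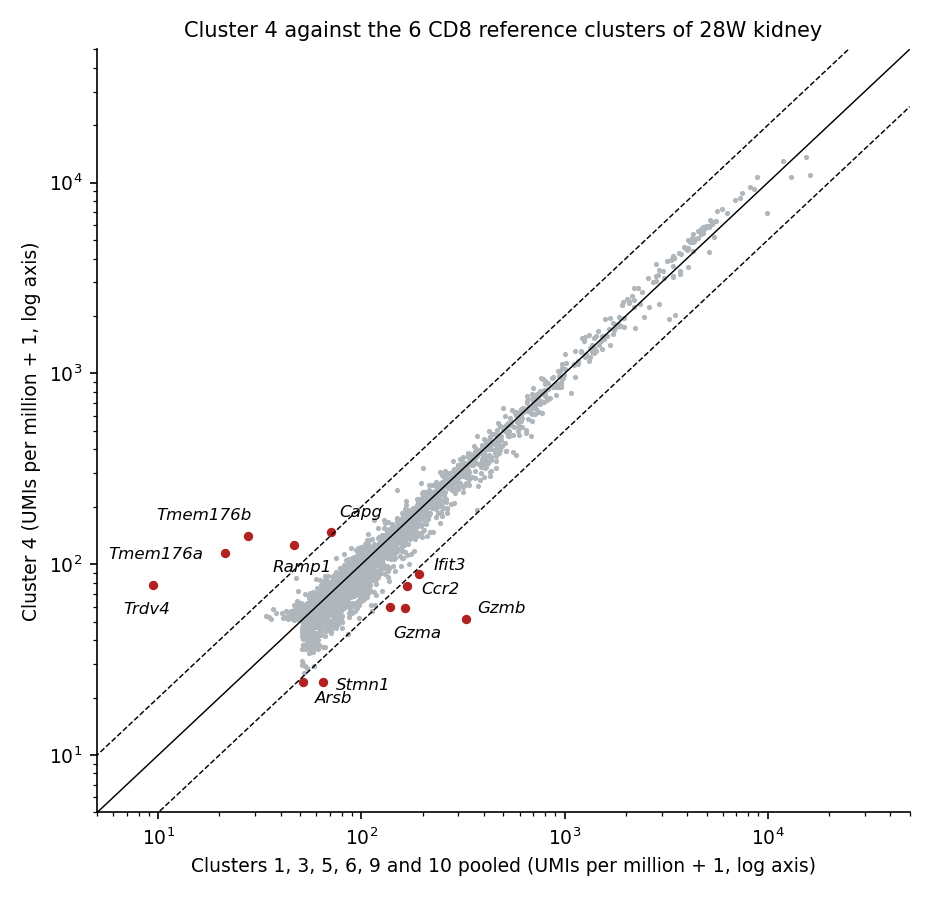
Level of each of 2707 genes in cluster 4 (vertical axis) against the 6 CD8 reference clusters pooled (horizontal axis), both CPM + 1 on log axes, with the line of equal levels and dashed lines at 2-fold. Most genes lie inside the dashed lines, and 11 of the 12 genes past 2-fold are labelled.

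The list of cytotoxic genes had a median log2 ratio below 0 over the pooled CD8 reference clusters but not over cluster 5 or 9. Of the 15 listed genes, *Gzmb*, *Gzma* and *Ccl3* were at least 2-fold lower than in the other 11 clusters, where 8.73% of all genes were, and 0 were higher. The median log2 ratio was -0.33 over the other 11 clusters and -0.54 over the CD8 reference clusters, but 0.37 over cluster 5 and 0.09 over cluster 9. Over all genes with at least 20 kidney UMIs it was -0.19, -0.11, 0.11 and -0.06 in the same order. *Gzmb* (granzyme B) was at 50.4 CPM in cluster 4, 696 in cluster 1, 281 in cluster 6, 261 in cluster 3, 118 in cluster 10, 39.7 in cluster 9 and 6.94 in cluster 5, 0.15-fold (0.13 to 0.18) over these 6 clusters together. *Gzma* was at 57.6 CPM, 0.35-fold over the same clusters, and only cluster 9 was lower. *Gzmk*, the granzyme of less differentiated CD8+ T cells, was at 469 CPM against 588 in the rest. The chemokine gene *Ccl5* was at 6902 CPM, the perforin gene *Prf1* at 71.8 and *Ifng* at 63.1. *Eomes* and *Tbx21*, the transcription factors of the cytotoxic program, were at 66.9 and 75.8 CPM.

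Memory genes lay between the effector clusters and clusters 5 and 9. *Il7r*, the interleukin 7 receptor that memory and γδ17 cells depend on, was at 266 CPM in cluster 4, below cluster 5 at 624 and cluster 9 at 404, near cluster 10 at 249 and above the 41.9 to 88.1 of clusters 1, 3 and 6. *Klf2*, a transcription factor for tissue egress, was at 234 CPM, against 610 in cluster 5 and 439 in cluster 9 and 87.7 to 122 in clusters 1, 3 and 6. *Tcf7* (TCF1) was at 92.3 CPM against 74.9 in the rest, and *Ccr7* was 1.60-fold over the CD8 reference clusters. The median log2 ratio of the 10 memory and egress genes was -0.16 over the rest, near the -0.15 over all genes. Its interval (-0.47 to 0.14) spans 0. Over the CD8 reference clusters the median was 0.14, against -0.09 over all genes, so its sign depended on the reference. Of the 10 residency genes, 0 passed 2-fold in either direction over the rest, where 0.388% of all genes were that much higher and 8.73% lower. Their median was -0.24, against -0.15 over all genes. *Cxcr6*, a receptor of tissue T cells, was at 504 CPM, above clusters 5 (172), 9 (291) and 10 (319) and below clusters 1, 3 and 6 (826 to 870). The early activation and retention gene *Cd69* was at 70.0 CPM against 129, and the integrin genes *Itga1* and *Itgae* were at 6.08 and 6.95.

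**Figure D4:**
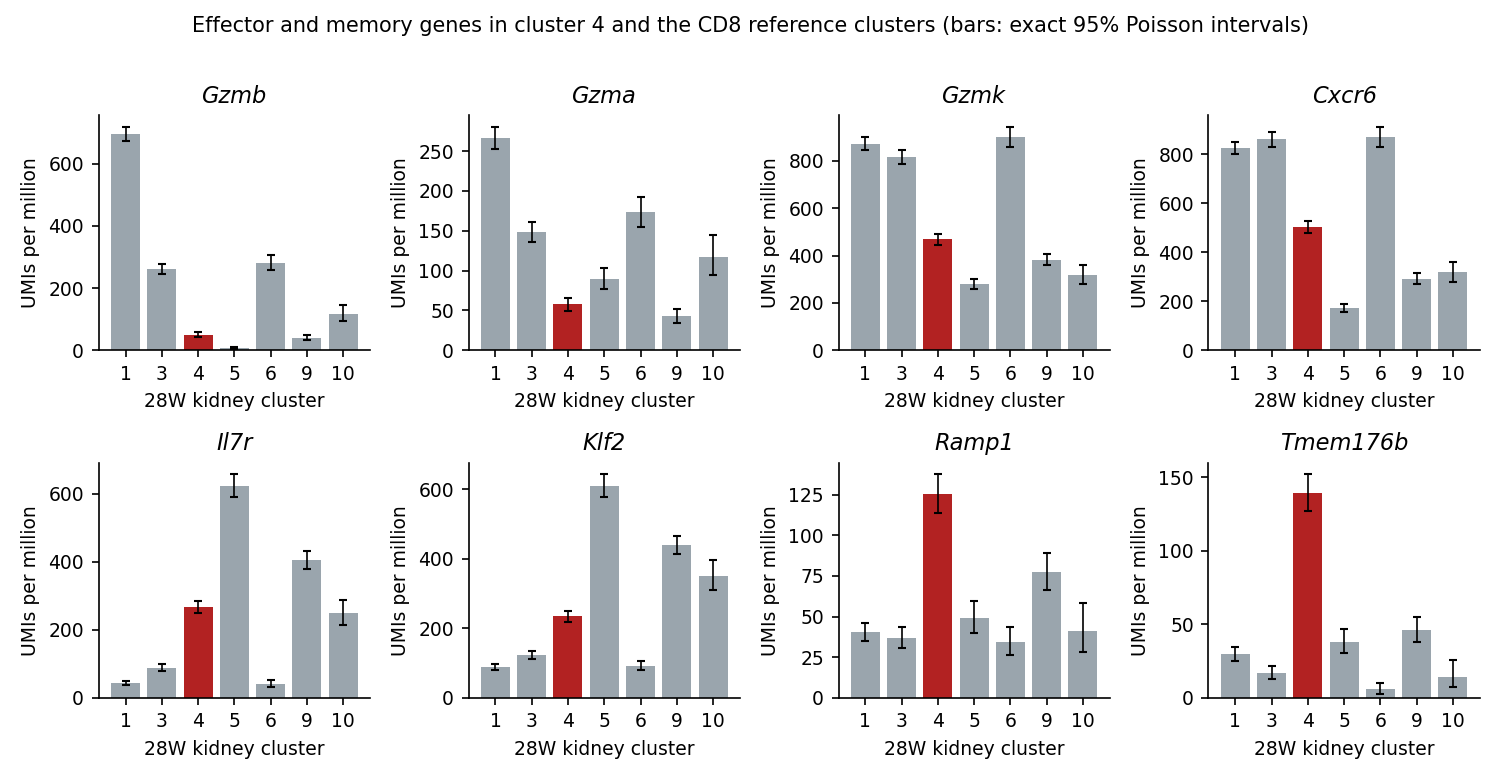
CPM of 8 effector, memory and type 17 genes (vertical axes) in cluster 4 and the 6 CD8 reference clusters (horizontal axes), with exact Poisson 95% limits. For *Gzmb*, *Cxcr6*, *Il7r* and *Klf2* cluster 4 lies between clusters 5 and 1, and for *Ramp1* and *Tmem176b* it is the highest of the 7.

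Inhibitory, interferon and activation genes had medians below 0 over the other 11 clusters. Of 10 inhibitory receptor genes, *Ctla4*, *Havcr2* and *Entpd1* were at least 2-fold lower, where 8.73% of all genes were. Their median log2 ratio was -0.51 over the other 11 clusters, 0.64 over cluster 5 and -0.26 over cluster 9. *Ctla4* was at 15.05 CPM against 47.6 in the rest, with cluster 8 at 213 and cluster 9 at 69.7, and *Entpd1* (CD39) at 12.7 against 38.2. *Tigit* was at 57.6 CPM and *Lag3* at 72.1. Interferon-stimulated genes had a median of -0.24 over the rest and -0.62 over the CD8 reference clusters, where 2 of 10 were at least 2-fold lower, against 1.08% of all genes. *Rsad2* (viperin) was at 11.3 CPM against 114 in cluster 6 and 87.8 in cluster 10. Genes of AP-1 and NF-kB had a median of -1.29 over the rest and -0.31 over the CD8 reference clusters, and proliferation genes of -3.60 and -1.42, with *Mki67* at 2.60 CPM, the lowest of the 12 clusters.

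**Figure D5:**
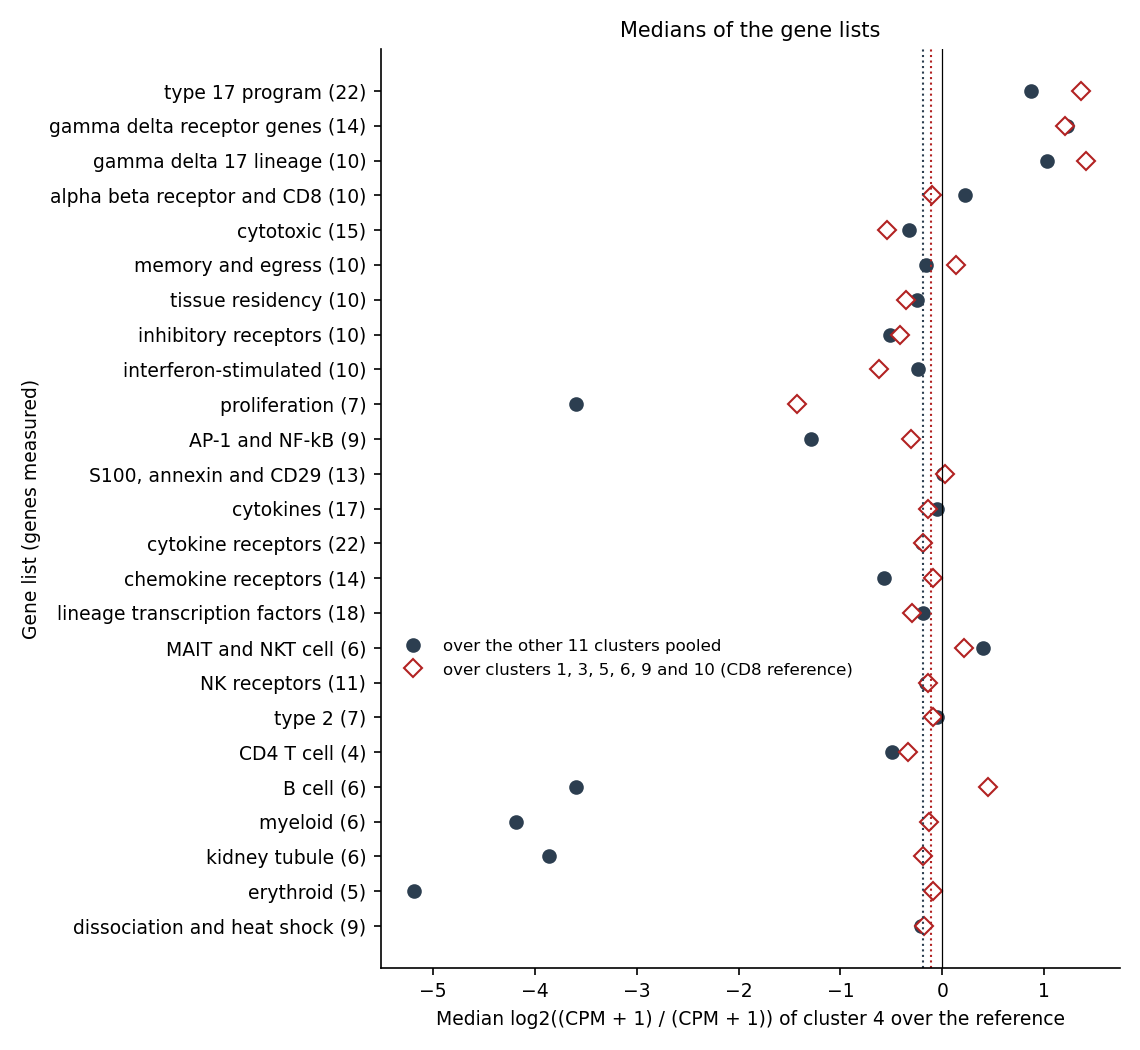
Median log2((CPM + 1)/(CPM + 1)) of 25 gene lists in cluster 4 over the other 11 kidney clusters and over the 6 CD8 reference clusters (horizontal axis, 1 row per list), with dotted lines at the median of all genes with at least 20 kidney UMIs (-0.19 and -0.11). The type 17, γδ receptor and γδ17 lineage lists are highest with both references, and B cell, myeloid, tubule and erythroid lists are low over all other clusters only.

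The clusters with the most similar profiles were cluster 9 and cluster 5, each with a Pearson r of 0.985 of log2(CPM + 1) over 4850 genes, followed by cluster 1 at 0.983. These points share the library and the genes that are high everywhere, so r is a description. Against cluster 5, 17 of 2536 genes were at least 2-fold higher in cluster 4 (0.67%) and 9 lower (0.355%). *Gzmb* (log2 ratio 2.69), *Fgl2* (2.58), *Ccr2* (2.24), *Lgals3* (1.94), *Tmem176b* (1.85) and *Cxcr6* (1.55) were higher, and *Rsad2* (-2.18), *Klf2* (-1.38), *Il7r* (-1.23) and *Fos* (-1.14) were lower. Against cluster 9, 5 of 2725 genes were at least 2-fold higher (0.183%) and 18 lower (0.661%). *Tmem176a* (1.64), *Tmem176b* (1.58), the galectin-3 gene *Lgals3* (1.31) and *Capg* (1.27) were among the higher genes. *Ctla4* (-2.14), the NF-kB inhibitor *Tnfaip3* (-1.85), the kinase gene *Pim1* (-1.68) and *Junb* (-1.37) were lower. The type 17 list had a median of 1.01 over cluster 5 and 0.71 over cluster 9, and the γδ17 lineage list of 1.73 and 1.52.

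In the spleen libraries, which were normalized separately, the cluster most similar to cluster 4 was cluster 2 in each, with 1118 cells in 12W spleen (r 0.976) and 1027 in 28W spleen (r 0.981). *Il17a* was not among the 16110 genes listed for 12W spleen, each with at least 1 UMI, so no level is given there. In 28W spleen *Il17a* had 2 UMIs, both in cluster 2 (0.42 CPM). *Trdv4* was at 5.68 and 1.69 CPM in these clusters and *Tcrg-V6* at 7.998 and 2.95, each below the level in cluster 4. *Cd163l1* had 16 and 5 UMIs in the 12W and 28W spleen libraries. *Trdc*, the δ constant gene, was at 45.2 and 6.95 CPM in the same clusters, against 16.2 CPM in cluster 4. The summed γδ receptor level of these clusters was 306 and 144 CPM, so cluster 4 at 255 lay between them. The highest spleen clusters were above it, at 631 CPM in cluster 3 of 12W spleen and 277 in cluster 9 of 28W spleen. In cluster 2 of 12W and 28W spleen the γδ17 lineage list summed to 714 and 475 CPM, against 371 in cluster 4. Other genes of the list than *Blk*, *Cd163l1* and *5830411N06Rik* carried the 12W sum. These 3 were at 3.10, 2.58 and 0.52 CPM in cluster 2 of 12W spleen, against 27.5, 19.4 and 8.68 in cluster 4. The type 17 list summed to 445 and 482 CPM in cluster 2 of 12W and 28W spleen, against 888. *Ramp1* was at 64.5 and 35.6 CPM in the same clusters, below the 125 CPM of cluster 4, and at 172 and 75.2 CPM over the whole spleen libraries. With 1 kidney library, digested where no digestion was described for spleen, organ and preparation cannot be told apart.

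Markers of other cell types were low in cluster 4 beside the other 11 clusters, which include the clusters with the highest levels of those markers. Beside the CD8 reference clusters the B cell list was not low. Its summed level was 196 CPM, against 141 to 194 in those clusters. Of its 6 genes, 0 passed 2-fold in either direction there, where 0.618% of all genes were that much higher and 1.08% lower. The B cell, myeloid, tubule and erythroid lists had medians of -3.60, -4.19, -3.86 and -5.18 over the other 11 clusters and of 0.45, -0.13, -0.19 and -0.09 over the CD8 reference clusters. *Adgre1*, *Lrp2*, *Umod* and *Alas2* had 0 UMIs. The B cell antigen presentation gene *Cd74* had 165 UMIs (47.8 CPM) and *Cd4* had 9. Genes of the tissue dissociation response had a median of -0.21 over the rest and -0.18 over the CD8 reference clusters.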

How the data were processed

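PD-1+CD44+CD8+ T cells of 3 groups were profiled by 5′ single-cell RNA sequencing, with 4 samples per group pooled in 1 set of tables. Per the labels, Cell Ranger 2.1.1, R 3.6.1 and GRCm38 were used. The annotation release, strand setting, cell filters and handling of doublets are not given in the sources used here, and without a matrix of single cells doublets could not be examined. For each library the authors deposited a cluster number for each barcode and a table of mean counts per gene and cluster, scaled by the authors to the median UMI count of the library. Each column held whole multiples of 1 step, the worth of 1 UMI (largest residual 1.31e-08 UMIs), and UMIs were recovered by division. No per-sample columns were left unmapped. Columns of log2 fold changes and adjusted p-values, the authors' own comparisons, were not used.

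UMIs were summed over clusters and expressed as CPM. Ratios used a pseudocount of 1 CPM. Intervals were exact (Poisson or binomial). With 1 library per group, no test was run. Of the kidney gene identifiers, 17762 of 17790 were found in GENCODE M21. The nearest clusters were the 2 with the highest correlation over genes with at least 50 CPM in any kidney cluster. Named genes were those of 25 lists, the 15 highest and 10 lowest ratios over the other 11 clusters, the 10 genes with the largest share of their UMIs in cluster 4 among those with at least 50 kidney UMIs, and the 3 leading Trbv and Trav segments. Genes with large ratios over the other references were named after their values were seen. The members and lists were chosen with earlier results of these data known. Results for some genes are not reported here. The ratio and interval steps were tested on simulated data. Alternatives were the pseudocount, the scaling, the reference clusters, equal weighting of clusters and the minimum level. Python 3.11.15, numpy 2.4.6, pandas 2.3.3, scipy 1.17.1, matplotlib 3.10.9 and Biopython 1.88 were used.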

Additional observations from a re-analysis of the deposited data

How the results depend on the processing

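The type 17 median stayed between 0.55 and 1.41 under every alternative run, the memory median between -0.17 and 0.14 and the residency median between -0.42 and -0.13, each moving by less than its counting interval. The 2 genes past 2-fold higher became 7 with scaling to UMIs without receptor, mitochondrial and ribosomal protein genes, 69 with no minimum on CPM, 5 without clusters 7, 8, 11 and 12 as reference and 5 without clusters 2, 7, 8, 11 and 12, the last an alternative chosen after seeing the data. The 162 lower genes became 1553 with no minimum, 48 without clusters 7, 8, 11 and 12 and 7 without cluster 2 as well. The cytotoxic median of -0.33 became -0.21 with that scaling, -0.068 with equal weight for each cluster, -0.47 without clusters 7, 8, 11 and 12 and -0.54 without cluster 2 as well. The αβ receptor and CD8 median of 0.22 became 0.34, 0.38, -0.047 and -0.10 in the same order. Without clusters 7, 8, 11 and 12 the cluster held 97.5% of *Il17a* UMIs and 14.4% of cells. Among listed genes past 2-fold over the other 11 clusters, ratios changed sign without those 4 clusters for *Anxa1* (1.45), *Csf1r* (0.35), *Cx3cr1* (0.0050) and *Ms4a1* (0.55). Without cluster 2 as well they did so for *Anxa1* (1.44), *Cd74* (0.49), *Cd79a* (0.70), *Csf1r* (0.44), *H2-Aa* (0.24), *Hbb-bs* (0.11), *Ighm* (0.036), *Ms4a1* (0.86) and *Mzb1* (0.048). By construction these alternatives leave out the clusters that hold most UMIs of those genes. Smaller ratios also changed sign without cluster 2 as well, among them *Cd8a* (843 against 904 CPM), *Cd8b1* (1304 against 1356) and *Pdcd1* (116 against 142). Of 30 listed genes past 2-fold higher, 8 remained so with a pseudocount of 10 CPM and at least 28 under the other settings. No paired analysis was possible because the columns carry no replicate and no test was made. Counting error was the only error measured, and 39 UMIs limit the *Il17a* values.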

Other observations

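Cytokine and receptor genes outside the type 17 list also differed. *Tnfsf11* (RANKL) was at 8.10 CPM in cluster 4, the highest of the 12 kidney clusters, with 7.51 in cluster 9 and 6.07 in cluster 8 (2.41-fold over the rest, 1.52 to 3.72, 28 UMIs). *Lta* (lymphotoxin α) was at 20.8 CPM against 11.1 (1.88-fold, 1.43 to 2.44) and *Xcl1*, a chemokine for cross-presenting dendritic cells, at 245 against 131, both highest in cluster 4. *Il2* was at 11.9 CPM against 5.82, below cluster 10 at 14.2. *Ccr4*, a chemokine receptor of skin and type 2 T cells, was at 6.66 CPM against 1.93 (3.46-fold, 2.02 to 5.76), and *Cd40lg*, the ligand of CD40, at 13.3 against 5.85, below cluster 5 at 16.2. *Anxa1* (annexin A1) was at 6.08 CPM in cluster 4 and 510 in cluster 12, and was 3.76-fold (2.01 to 6.95) over the CD8 reference clusters.

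Some genes of no list held a large share of their kidney UMIs in cluster 4. *Prr29* had 28 of 53 UMIs there (52.8%), *Abi3bp* 24 of 53 (45.3%), the relaxin-3 gene *Rln3* 47 of 104 (45.2%) and *Ly6g5b* 100 of 240 (41.7%). *Ly6g5b* was at 28.9 CPM, with cluster 1 next at 12.5, and *Rln3* at 13.6, with cluster 12 next at 7.70. The α chain segment *Trav11*, which invariant NKT cells use, had 19 of its 26 kidney UMIs in cluster 4 (73.1%), at 5.50 CPM against 0.26 (20.8-fold, 8.37 to 58.6). The segment *Trav1*, which MAIT cells use, was at 13.6 CPM against 19.0. *Zbtb16*, the transcription factor gene of both cell types, had 2.32 CPM against 0.87.

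The lists not described above had medians over the CD8 reference clusters of -0.14 for cytokines, -0.19 for cytokine receptors, -0.10 for chemokine receptors, -0.30 for lineage transcription factors, -0.14 for NK receptors, -0.09 for type 2 genes, -0.33 for CD4 T cell genes, 0.22 for MAIT and NKT cell genes and 0.03 for S100, annexin and CD29 genes. Over all other clusters the same lists were at -0.06, -0.20, -0.57, -0.19, -0.16, -0.06, -0.49, 0.40 and 0.00. Among the chemokine receptor genes *Ccr6* was higher, while *Ccr2* (75.8 against 146 CPM) was lower.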
